A study of Mus musculus with 9 samples.

Results

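The 7 fibrillar collagen genes of the dermis described here, Col1a1, Col1a2, Col3a1, Col5a1, Col5a2, Col5a3 and Col11a1, were chosen by gene name from a table of 54532 genes measured by RNA sequencing of mouse skin. Fibrillar collagens are secreted as procollagen triple helices, trimmed by proteases outside the cell and assembled into the banded fibrils that give dermis its tensile strength. Type I collagen, built from the Col1a1 and Col1a2 chains, is the bulk of the fibril, and type III collagen, made of Col3a1 chains, is mixed into it. Type V collagen, from Col5a1, Col5a2 and Col5a3, starts fibril assembly and limits fibril width, and the type XI chain Col11a1 is best known from cartilage. Fibroblasts are the main source of these chains in skin.

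The study, a mouse model of systemic sclerosis, compared 3 groups of 3 skin libraries, all labelled wild type. One group, the control (ctrl), was taken from healthy mice, with no vehicle named, one received bleomycin (Blm), a DNA-damaging drug used to provoke skin fibrosis in mice, and one received bleomycin and nitrate (Blm_Nit), applied topically according to the series title. No label states strain, sex, age, dose, duration or which animal each library came from. The spread behind every p-value is therefore that between libraries, and it may be technical. The question posed by the design is what bleomycin did to the skin and whether nitrate altered it. In bulk skin, fewer cells of a type and less RNA per cell cannot be told apart.

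Reads recovered from the values numbered 15804050 to 18352592 per library. Genes of the growing hair follicle varied widely between libraries. The mean log2(FPKM + 1) of their 19 markers was 0.37, 3.56 and 5.59 in control libraries 1 to 3. It was 1.39, 5.24 and 6.49 in bleomycin and 7.44, 5.38 and 8.04 with nitrate. Control library 1 and bleomycin library 1 stood apart as the lowest. Against control, the median log2 difference of the 19 was 1.11 for bleomycin and 4.28 for nitrate. For nitrate against bleomycin it was 3.05, and 0 of the 19 were called in any comparison. FPKM is a fragment count scaled by gene length and library size. The size implied by the deposited values was not the recovered reads themselves. It was 0.916 to 0.967 times them in control and 0.995 to 1.09 times them in the bleomycin and nitrate libraries. Scaling factors were also computed here from the recovered reads, as a trimmed mean of log ratios between libraries. They were 0.902 to 0.952 in control and 0.984 to 1.07 in the bleomycin and nitrate libraries. Whether the submitters scaled in this way was not tested. The 16 fibroblast markers, among them Pdgfra, Dcn and Lum, were present in every group, with none at 0, and their summed level was 1328 to 2004 FPKM in control, 844 to 991 in bleomycin and 769 to 1350 in the nitrate group. Summed markers of skeletal muscle ranged from 16276 to 24347 FPKM in control, from 3418 to 15085 in bleomycin and from 2619 to 11946 with nitrate, and those of epidermis from 3327 to 5643, from 8204 to 11508 and from 5935 to 9506 FPKM. Mitochondrial genes took 6.45 to 7.78% of reads in control and 2.74 to 4.34% in the other 6 libraries. The part of these shifts in the collagen results was not tested, other than by the alternatives given beside them.

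The genes lie apart in the mouse genome except for one pair. In mm10, Col1a1 (ENSMUSG00000001506) is at chr11:94936224-94953042 on the plus strand, Col1a2 (ENSMUSG00000029661) at chr6:4504814-4541544 on the plus strand and Col5a1 (ENSMUSG00000026837) at chr2:27886425-28039514 on the plus strand. Col3a1 (ENSMUSG00000026043), at chr1:45311538-45349706 on the plus strand, and Col5a2 (ENSMUSG00000026042), at chr1:45374321-45503282 on the minus strand, are neighbours transcribed towards each other. Col5a3 (ENSMUSG00000004098) is at chr9:20770050-20815067 on the minus strand and Col11a1 (ENSMUSG00000027966) at chr3:114030540-114220718 on the plus strand. The counts span all exons of each gene, and the principal transcripts have 51 to 67 exons. Col5a1 overlaps 2 transcripts on the opposite strand, 2810430I11Rik and Gm13372, and Col5a3 overlaps Gm26274 there. On their own strand Col1a2 overlaps Gm43921, Col3a1 the miRNA gene Gm47302 and Col5a2 Gm38211. No source used here says whether counting used strand, and reads of those genes could not be separated from the collagen's.

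The promoters of a gene that fell after bleomycin and of one that was not called are shown to set their base composition side by side. RefSeq promoter windows (GRCm38.p6) were found for 5 of the 7 genes: Col1a2, Col3a1, Col5a1, Col5a3 and Col11a1. Each sequence gives the 250 bases before the transcript start, 5′ to 3′ on the gene's strand, with capitals marking a TATA box (TATAAA or TTTATA), a GC box (GGGCGG or CCGCCC) or a CCAAT box (CCAAT or ATTGG). These motifs do not overlap in the 2 windows shown. The first lies at chr1:45311288-45311537 and the second at chr2:27886175-27886424, both on the plus strand.
Col3a1: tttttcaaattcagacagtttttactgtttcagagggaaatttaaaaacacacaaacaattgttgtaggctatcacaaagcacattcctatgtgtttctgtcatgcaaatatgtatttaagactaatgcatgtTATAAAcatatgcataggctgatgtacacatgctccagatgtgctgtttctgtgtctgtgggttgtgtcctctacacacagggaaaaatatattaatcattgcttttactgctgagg
Col5a1: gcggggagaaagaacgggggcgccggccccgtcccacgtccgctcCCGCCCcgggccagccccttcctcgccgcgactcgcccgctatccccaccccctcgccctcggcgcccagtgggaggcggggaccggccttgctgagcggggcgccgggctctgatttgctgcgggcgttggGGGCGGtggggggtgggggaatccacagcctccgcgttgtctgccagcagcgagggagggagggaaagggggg
The Col3a1 window was 35.2% G and C and held 1 TATAAA, 117 bases before the start. That of Col5a1 was 76.4% G and C and held 2 GC boxes, 73 and 205 bases before the start, where the median of all 32851 windows was 52.4%. The windows of Col1a2, Col5a3 and Col11a1 each held 1 CCAAT box and 2 GC boxes. Their G and C content was 62.0, 62.8 and 62.4%. Col1a2 fell after bleomycin while Col5a3 and Col11a1 were not called, so the contrast of the 2 windows shown does not extend to these genes. Of all windows, 12.4% held the TATA letters, 32.7% the GC box and 33.8% the CCAAT box, on either strand. A match of letters is a description and not a measured binding site.

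In control skin the type I and type III chains were far above the type V and XI chains. Col1a1 stood at 2661 ± 336 FPKM (SD, n = 3), Col3a1 at 1078 ± 174 and Col1a2 at 936 ± 123, and the libraries of the last pair overlapped. Col5a1 at 72.6 ± 17.5, Col5a2 at 55.4 ± 8.79 and Col5a3 at 29.7 ± 9.4 followed, with Col5a1 and Col5a2 overlapping, and Col11a1 came last at 0.741 ± 0.270 FPKM. The order within these pairs depended on the gene length used to scale the reads. The deposited values divide by all annotated exons, 12426 bases for Col1a2, where its principal transcript has 5348. With principal transcript lengths, Col1a2 would be 2174 ± 285 and Col3a1 1902 ± 308 FPKM in control, and Col5a2 80.2 ± 12.7 against 73.4 ± 17.6 for Col5a1. Ratios of 1 gene's FPKM between groups do not involve its length. For low genes such as Col11a1, the differences of log2(FPKM + 1) and the minimum of 1 FPKM for testing do depend on it.

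**Figure D1:**
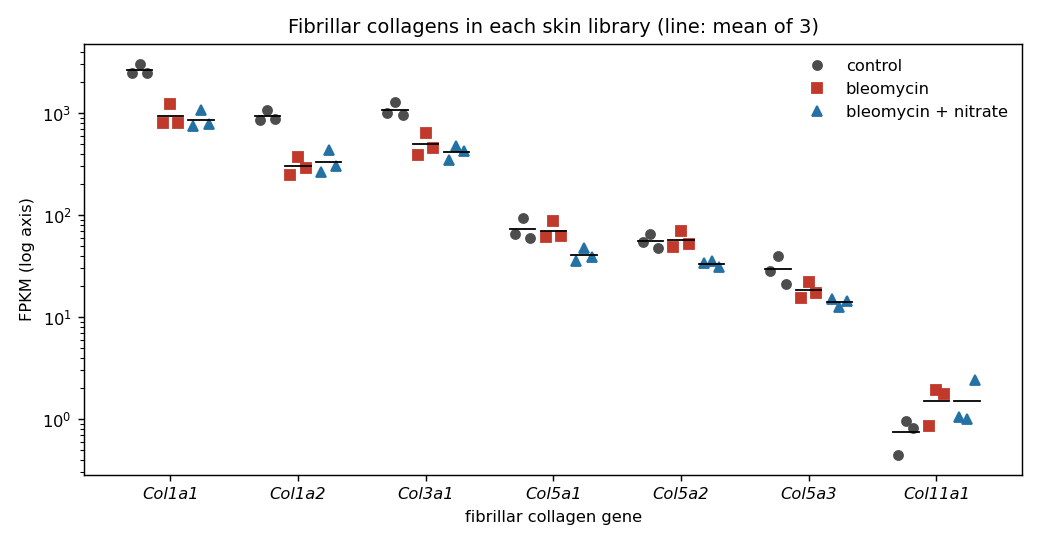
FPKM (log axis) of the 7 fibrillar collagens in each of the 9 libraries, by group, with the mean of 3 as a line. Col1a1, Col1a2 and Col3a1 are lower in every bleomycin and nitrate library than in any control library, and Col5a1 and Col5a2 are lower only in the nitrate group.

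After bleomycin, the genes of type I and type III collagen fell and those of type V and XI did not pass the test. Of the 7 genes, 3 were called lower and 0 higher at an adjusted p under 0.05 (limma, Benjamini-Hochberg over 14645 genes), where 3.69% of all genes tested were called lower. The same 3 were lower without overlap between the groups, as were 17.3% of all genes. The median change of the 7 genes was -0.65 on the log2(FPKM + 1) scale, and that of all genes was 0.01.

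Col1a1, the major chain of type I collagen, measured 2483, 3048 and 2451 FPKM in control libraries 1 to 3 and 792, 1214 and 805 in bleomycin. Every bleomycin library was below every control library, and the bleomycin mean was 35.2% of the control mean. The difference was -1.53 ± 0.23 (log2, SE; 95% interval -2.04 to -1.01; adjusted p = 0.00886). Col1a2, the partner chain, went from 853, 1077 and 878 FPKM in control to 245, 372 and 286. Its groups were again apart, with a log2 difference of -1.65 ± 0.23 (adjusted p = 0.00790). Col3a1, which forms type III collagen, went from 998, 1278 and 958 to 391, 642 and 453 FPKM. It fell by 1.14 ± 0.22 on the log2 scale (adjusted p = 0.0208), also without overlap.

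The calls of Col1a1 and Col1a2 were lost when control 1 and bleomycin 1 were both left out, with adjusted p of 0.0816 and 0.0722 and log2 differences of -1.47 and -1.57. That of Col3a1 was lost in that fit (0.128, log2 difference -1.04) and without control 1 (0.0537), control 2 (0.0830), bleomycin 1 (0.0665) or bleomycin 3 (0.0688). With the hair follicle list as a covariate, all 3 were called, with adjusted p of 0.0163, 0.0140 and 0.0343.

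None of the type V chains was called after bleomycin. Col5a1, the chain found in most type V molecules, measured 65.5, 92.5 and 59.8 FPKM in control and 61.2, 86.7 and 62.8 after bleomycin. The groups overlapped throughout their range, with a log2 difference of -0.04 and a 95% interval of -0.52 to 0.44 (adjusted p = 0.923). Col5a2, its usual partner, measured 54.8, 64.5 and 47.0 in control and 48.2, 69.0 and 51.5 FPKM after bleomycin, a difference of 0.02 with an interval of -0.37 to 0.40 (adjusted p = 0.966). The interval of each gene excludes a change as large as that fitted for Col1a1. Col5a3, the least abundant type V chain, measured 28.5, 39.6 and 20.9 in control and 15.2, 22.1 and 17.3 FPKM after bleomycin. Bleomycin 2 lay above control 3, and the difference of -0.65 ± 0.23 did not pass the test (adjusted p = 0.116).

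Col11a1 was near the limit of what was tested. It had 0.441, 0.966 and 0.817 FPKM in control (86, 207 and 181 reads) and 0.847, 1.91 and 1.75 after bleomycin (176, 421 and 393 reads). It entered the test only through libraries of the bleomycin and nitrate groups, since no control library reached 1 FPKM. With its principal transcript length, control 2 and 3 would be at 1.61 and 1.36 FPKM. The log2 difference was 0.51 ± 0.27 (adjusted p = 0.267). It was 0.91 with 0.1 in place of 1 added to FPKM and 0.98 in a fit of the recovered reads (voom), and was called in neither.

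**Figure D2:**
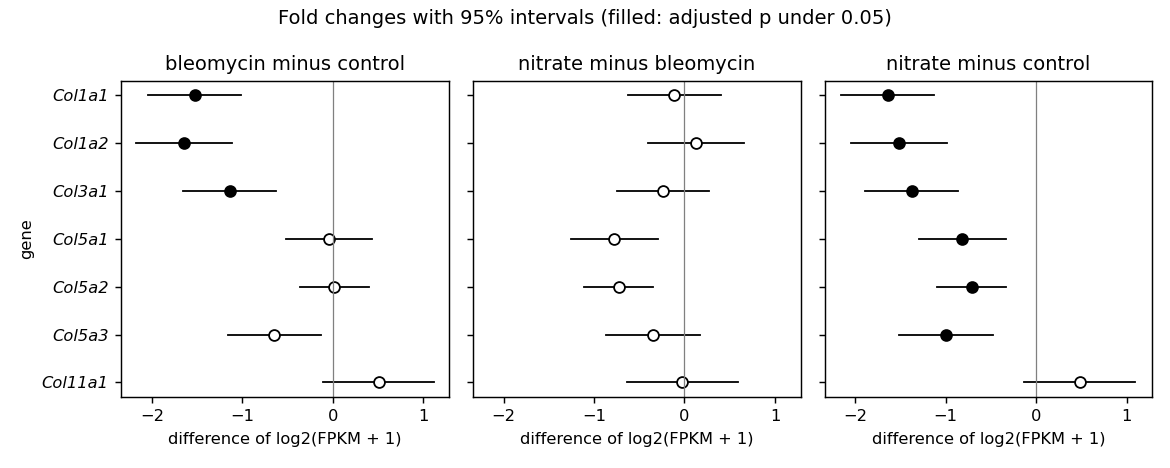
Difference of log2(FPKM + 1) with its 95% interval for each gene (rows) in the 3 comparisons (panels), from limma; filled points have an adjusted p under 0.05. The type I and III genes are filled in both comparisons with control, Col5a1, Col5a2 and Col5a3 only in that of nitrate with control, and no gene is filled for nitrate against bleomycin.

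Between the nitrate and bleomycin groups no fibrillar collagen passed the test, and the lowest adjusted p belonged to the type V genes. Of all 14645 genes 0 were called in either direction (0.0% of those tested), although 2624 had an unadjusted p under 0.05 in limma. Lower levels without overlap were found for 3 of the 7 genes, Col5a1, Col5a2 and Col5a3, and for 11.8% of all genes. Col5a1 measured 35.4, 47.1 and 38.7 FPKM with nitrate, each below the lowest bleomycin library at 61.2. The log2 difference was -0.77 ± 0.21 (95% interval -1.25 to -0.30; unadjusted p = 0.00541, adjusted p = 0.136, limma). Col5a2 measured 33.5, 35.0 and 31.1 FPKM, all under the bleomycin minimum of 48.2, a difference of -0.73 ± 0.17 (unadjusted p = 0.00215, adjusted p = 0.121, limma). Over 25 alternatives the adjusted p ranged from 0.0716 to 0.407 for Col5a1 and from 0.0833 to 0.374 for Col5a2. Col5a3 measured 15.0, 12.4 and 14.4 FPKM, a difference of -0.35 ± 0.23 (adjusted p = 0.457).

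The type I and III genes overlapped between the 2 bleomycin-treated groups. Col1a1 measured 740, 1063 and 776 FPKM with nitrate, and its difference from bleomycin was -0.11 with a 95% interval of -0.63 to 0.40. Col1a2 measured 261, 431 and 304 FPKM, a difference of 0.13 (interval -0.40 to 0.66). Col3a1 measured 347, 475 and 421 FPKM, a difference of -0.24 (interval -0.75 to 0.27). These intervals include differences of either sign and do not show that the groups were alike. Col11a1 measured 1.04, 1.0 and 2.44 FPKM with nitrate, where library 3 stood above the others, and the difference was -0.02 ± 0.27.

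Against control, the nitrate group was lower in 6 of the 7 genes, every one but Col11a1, where 4.9% of all genes were called lower. The same 6 did not overlap, as did 17.5% of all genes. This comparison shares its control libraries with that of bleomycin and is not an independent result. The log2 differences were -1.64 ± 0.23 for Col1a1 (adjusted p = 0.0127), -1.52 ± 0.23 for Col1a2 (0.0149) and -1.38 ± 0.22 for Col3a1 (0.0171). In the type V genes they were -0.82 ± 0.21 for Col5a1 (adjusted p = 0.0486), -0.71 ± 0.17 for Col5a2 (0.0391) and -0.995 ± 0.226 for Col5a3 (0.0366). For Col11a1 the difference was 0.48 ± 0.27 (adjusted p = 0.249). Its lowest nitrate library was at 1.002 FPKM and its highest control library at 0.966. As it passed the filter only through the bleomycin-treated groups, nothing is read from that order. None of the 6 calls was made without control 1, without control 2, with control 1 and bleomycin 1 both left out, or with the hair follicle list as a covariate. The log2 differences in those 4 fits stayed negative, from -1.69 to -1.54 for Col1a1 and from -0.88 to -0.63 for Col5a1. The hair follicle list itself had a median log2 difference of 4.28 in this comparison, so that covariate is not independent of the group. Without nitrate 1 there were 3 calls and without nitrate 3 there was 1.

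Together the 7 genes took 3.67, 4.36 and 3.62% of all reads in control, 1.31, 2.18 and 1.48% after bleomycin and 1.29, 1.83 and 1.5% with nitrate. The highest bleomycin or nitrate library was below the lowest control library. The composition of that share shifted as well. Type V chains made up 2.89 to 3.51% of the summed FPKM of the 7 genes in control, 7.38 to 8.02% after bleomycin and 4.58 to 5.85% with nitrate, 3 ranges that did not overlap. This is a change of share, since the type I and III genes that make up most of the sum fell. No type V gene was called after bleomycin, with log2 differences of -0.04 for Col5a1, 0.02 for Col5a2 and -0.65 for Col5a3.

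Ratios to Col1a1 within a library, which do not depend on scaling between libraries, were computed for the other 6 genes. Col1a2 stayed near Col1a1, at 35.2 ± 0.756% of it in control, 32.4 ± 2.71% after bleomycin and 38.3 ± 2.74% with nitrate, with overlapping groups. Col3a1 was at 40.2, 41.9 and 39.1% of Col1a1 in control, 49.3, 52.9 and 56.3% after bleomycin and 46.9, 44.7 and 54.3% with nitrate. Each bleomycin or nitrate library was above each control library. Col5a1 was at 2.64, 3.04 and 2.44% in control, 7.72, 7.14 and 7.81% after bleomycin and 4.78, 4.44 and 4.99% with nitrate. Col5a2 was at 2.21, 2.12 and 1.92%, then 6.09, 5.68 and 6.41%, then 4.52, 3.29 and 4.01%. In both, bleomycin was highest, nitrate intermediate and control lowest, with no overlap. Col5a3 averaged 1.10, 1.96 and 1.69% of Col1a1, and Col11a1 averaged 0.0276, 0.160 and 0.183%.

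The 6 libraries that had bleomycin were above the 3 controls in the log2 ratio to Col1a1 for Col3a1, Col5a1 and Col5a2, each with p = 0.0119 in a two-sided exact permutation test, the smallest p this design allows. After Benjamini-Hochberg adjustment over the 24 ratio comparisons the exact p was 0.0714 for each, which did not pass 0.05. Tests of 3 libraries against 3 cannot go below 0.1. A higher ratio than in control without overlap was also found after bleomycin for 84.8% of all genes and with nitrate for 86.8%, since Col1a1 itself was lower there. Leaving out Col11a1, which passed the filter only through the bleomycin-treated groups, 4 of 5 ratios were higher in this way after bleomycin and 3 with nitrate, and nothing particular to the collagens can be read from these counts. A lower ratio with nitrate than with bleomycin, without overlap, was found for 2 of the 6, Col5a1 and Col5a2 (exact p = 0.1 each), and for 2.9% of all genes.

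**Figure D3:**
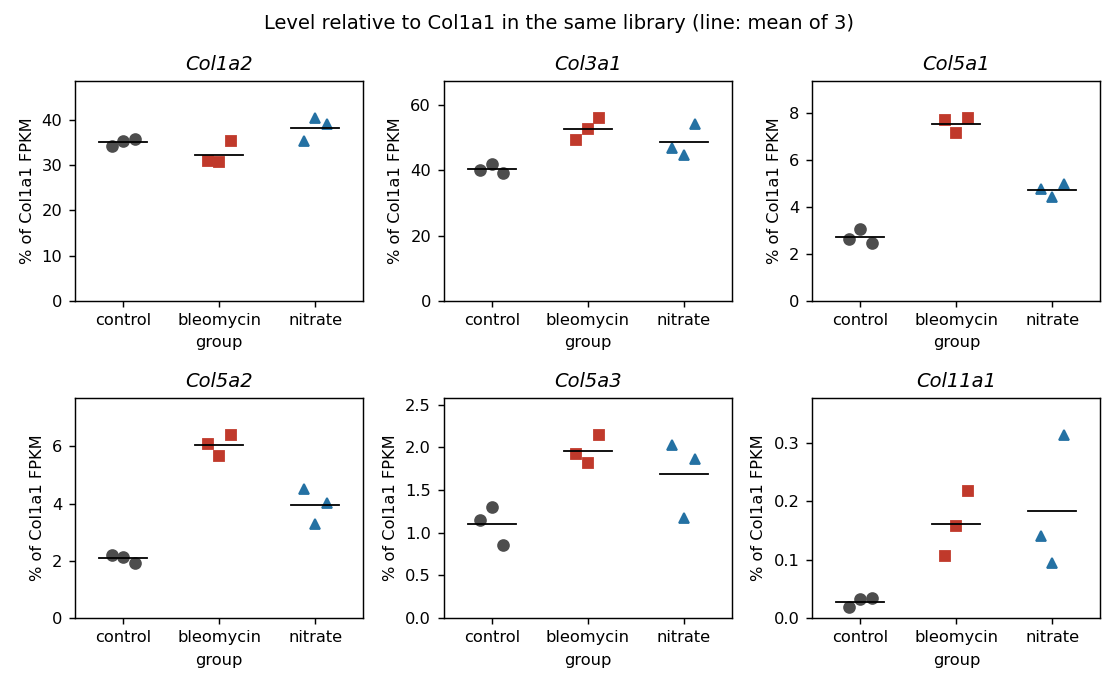
FPKM of 6 fibrillar collagens as a percentage of Col1a1 in the same library, by group (nitrate: bleomycin and nitrate), with the mean of 3 as a line. Col5a1 and Col5a2 lie in 3 separate bands, highest after bleomycin, and Col1a2 overlaps across the groups.

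Relative to the fibroblast markers of the same library, the type I genes were lower than in control, without overlap. This does not separate fewer fibroblasts from less RNA per cell, which was not tested. The mean log2 difference between Col1a1 and the 16 markers was 6.28 in control, 5.21 after bleomycin and 5.12 with nitrate. Against control that was -1.07 after bleomycin and -1.16 with nitrate, without overlap in either. Col1a2 differed by -1.19 and -1.03 and Col3a1 by -0.68 and -0.89, also without overlap. Relative to these markers, 2.43% of all genes outside the list were lower without overlap after bleomycin and 3.89% with nitrate, and 46.5% were higher after bleomycin. On the same scale, Col5a1 was 0.42 higher after bleomycin and differed by -0.33 from control with nitrate, and Col5a2 by 0.47 and -0.23, all without overlap. Col5a3 overlapped after bleomycin (-0.19) and was lower without overlap with nitrate (-0.51). For Col1a1, Col1a2 and Col3a1 the 6 bleomycin-treated libraries against 3 controls gave a two-sided exact permutation p of 0.0119, and 0.0833 after adjustment over 28 comparisons. Of the markers themselves, Cd34 and Gsn were called lower after bleomycin (2 of 16) and 0 higher, where 3.69% of all genes were called lower. The median change was -0.56, and 13 of the 16 had a difference below 0. Mfap5 (0.93), Thy1 (0.54) and Entpd1 (0.28) went the other way and were not called.

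Pearson correlations of log2(FPKM + 1), given as a description over libraries that share the group differences, were 0.987 between Col1a1 and Col1a2 and 0.986 between Col1a1 and Col3a1. That between Col5a1 and Col5a2 was 0.972, and that between Col1a1 and Col5a1 was 0.621. Col5a3 lay between, at 0.852 with Col1a1, 0.898 with Col3a1 and 0.774 with Col5a1. Col11a1 was negatively correlated with every other member, from -0.157 with Col5a1 to -0.558 with Col1a1. It passed the filter only through the bleomycin-treated groups, so nothing is read from those signs or from the genes closest to it. The gene most like Col1a1 was Sparc, a collagen-binding matrix protein (0.988), followed by Zfp469, Col1a2, Col3a1 and Cpz. For Col1a2 they were Eml1, Col1a1, Sparc, Cpz and Ushbp1, and for Col3a1 they were Col1a1, Rcn3, Sparc, Mpnd and Sec22b. The closest to Col5a1 were Col5a2, Fam69a, Fstl1, Loxl2 and AC115954.1, and the closest to Col5a2 were Col5a1, Fstl1, Crtap, Loxl2 and Fam69a. Col5a3 was closest to Kctd17, Trap1, Pomt2, Txndc15 and Adamts12 (0.970 to 0.958), and Col11a1 to Npm3, Nelfe, Gpn2, Polr2d and Dhx9 (0.955 to 0.937).

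The remaining fibrillar collagen genes were scarce. Col27a1 was tested and was not called (log2 difference 0.21 after bleomycin, adjusted p = 0.520). Col2a1, Col11a2 and Col24a1 did not reach 1 FPKM in 3 libraries. Col24a1 measured 0.215, 0.445 and 0.309 FPKM in control and 0.845, 1.26 and 0.588 after bleomycin.

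Of 24 genes that modify and fold procollagen in the endoplasmic reticulum, 4 fell and 1 rose after bleomycin, and 9 fell and 0 rose with nitrate against control. Of all genes tested, 3.69% were called lower and 4.74% higher after bleomycin, and 4.9% lower and 3.63% higher with nitrate against control, and the counts of this and the following lists are to be read against these shares. Serpinh1, the collagen chaperone HSP47, measured 398, 413 and 308 FPKM in control, 137, 224 and 186 after bleomycin and 151, 104 and 144 with nitrate. Its log2 difference from control was -1.04 ± 0.23 after bleomycin (adjusted p = 0.0294) and -1.49 ± 0.23 with nitrate (0.0150). Creb3l1, a transcription factor of secretory cells, Plod1, a lysyl hydroxylase, and P4ha2, a prolyl hydroxylase subunit, fell by 0.95, 0.73 and 0.61 on the log2 scale after bleomycin. P4ha3, another prolyl hydroxylase subunit, went the other way, from 0.918, 1.12 and 1.25 FPKM in control to 5.2, 5.69 and 5.28 (adjusted p = 0.00435), and was 2.22, 1.24 and 0.972 with nitrate. Its adjusted p of 0.0619 (limma) for nitrate against bleomycin equalled the lowest of all genes in that comparison, a value shared with at least 1 other gene. The median change of the list was -0.21 after bleomycin and -0.55 with nitrate, where all genes had 0.01 and 0.02. With nitrate the further genes that fell were Fkbp10, Fkbp14, P3h1, Sec24d and Kdelr2.

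Of 11 tested genes that cleave procollagen or crosslink fibrils, 3 fell and 1 rose after bleomycin, and 4 fell with nitrate against control. Pcolce2, an enhancer of procollagen cleavage, measured 14.7, 19.0 and 14.5 FPKM in control, 0.836, 2.11 and 1.58 after bleomycin and 3.69, 8.64 and 2.24 with nitrate. It fell by 2.79 ± 0.37 on the log2 scale after bleomycin (adjusted p = 0.00663), and its relative Pcolce fell by 0.92. Adamts14, a procollagen N-proteinase, fell by 0.62, and Loxl3, a lysyl oxidase, rose by 1.07 ± 0.27 (adjusted p = 0.0471). Loxl2, called only in the comparison of nitrate with control, had a log2 difference of -0.82 (adjusted p = 0.0383).

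Transcripts of proteins that sit on the fibril moved in both directions. Of 19 genes, Col12a1, Thbs2 and Fn1 rose and Sparc and Tnxb fell after bleomycin. Col12a1, which links fibrils to their surroundings, measured 3.12, 7.02 and 5.97 FPKM in control, 50.6, 75.5 and 34.2 after bleomycin and 21.4, 23.0 and 12 with nitrate. The groups were apart, with a log2 difference of 3.08 ± 0.36 after bleomycin (adjusted p = 0.00483) and 1.64 ± 0.36 with nitrate against control (0.0349). Sparc fell by 1.15 ± 0.19 after bleomycin and by 1.18 ± 0.19 with nitrate. Fn1, fibronectin, which fibroblasts lay down with collagen, rose by 1.15, and Thbs2, a matricellular protein, by 1.60. Tnxb, a tenascin that spaces collagen fibrils, fell by 1.87.

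Of 11 tested genes for collagen breakdown and uptake, Mmp13, a collagenase, rose, and 0 fell. It measured 1.98, 0.334 and 1.25 FPKM in control, 36.6, 14.9 and 6.75 after bleomycin (log2 difference 3.0 ± 0.71, adjusted p = 0.0375) and 6.34, 0.551 and 0.963 with nitrate. Of 6 tested collagen receptors, the integrin chain Itga11 rose by 1.44 ± 0.30 (adjusted p = 0.0270) and the receptor kinase Ddr2 fell by 0.85 ± 0.21 (0.0448). Itga11 measured 1.41, 4.03 and 2.80 FPKM in control and 8.61, 10.2 and 7.48 after bleomycin.

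Of 26 regulators of collagen genes and TGF-beta signalling, a pathway known to raise collagen transcription, 4 rose and 1 fell after bleomycin. Among them Inhba, the activin A subunit, rose by 1.53 ± 0.20 (adjusted p = 0.00617), Ctgf, a matricellular growth factor, by 1.02 ± 0.26 (0.0471) and Nfya, a subunit of the factor that binds CCAAT boxes, by 0.43 ± 0.11 (0.0484). Ltbp1, which holds latent TGF-beta in the matrix, fell by 0.88 ± 0.18 (0.0248). Inhba measured 0.972, 1.2 and 1.14 FPKM in control, 5.16, 6.09 and 4.08 after bleomycin and 4.74, 4.06 and 2.5 with nitrate, and each library of the last 2 groups was above each control library. With nitrate against control Inhba rose, and Ets1, Fli1 and Ltbp1 fell. In all these lists 0 genes were called between nitrate and bleomycin. With control 1 and bleomycin 1 both left out, Col12a1 was called after bleomycin and 0 genes of the processing, crosslinking, breakdown and receptor lists were, and with nitrate 0 genes of any of these lists were called.

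**Figure D4:**
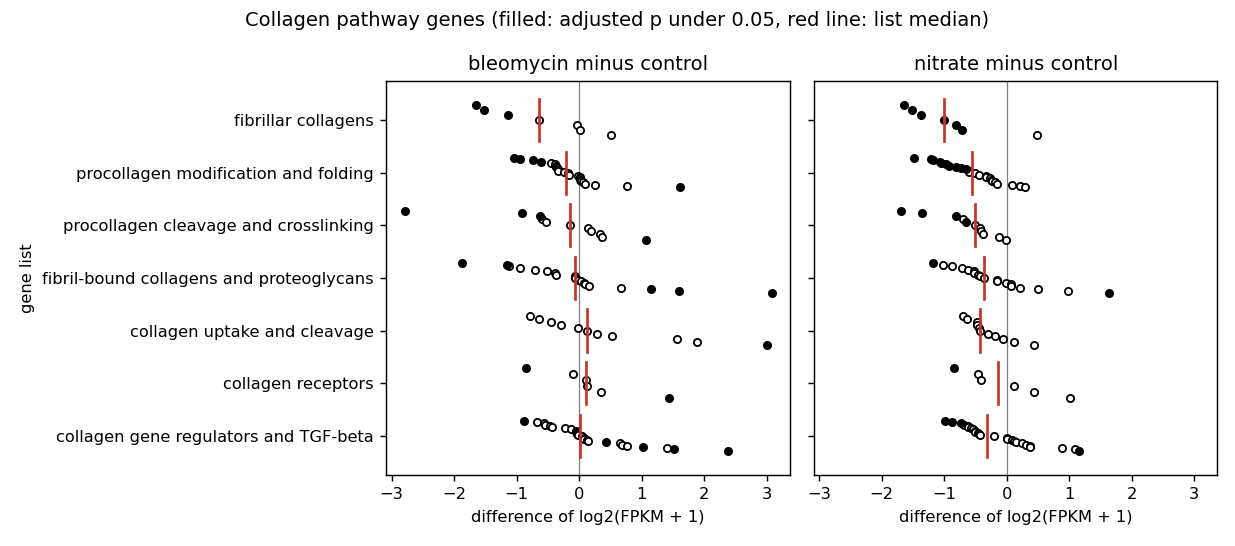
Difference of log2(FPKM + 1) from control for each tested gene of 7 lists (rows), after bleomycin and with bleomycin and nitrate (panels); filled points have an adjusted p under 0.05 and the red line is the list's median. Most collagen genes lie left of 0 in both panels, while the fibril-bound and regulator lists spread to both sides after bleomycin.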

How the data were processed

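Skin RNA of 9 mouse libraries was measured by mRNA sequencing (RNeasy extraction and a SMARTER library kit, per the labels' protocols). The deposited table gives FPKM per gene, computed by the authors, on mm10 per the submitters' processing notes. The aligner, counter and strand setting are not given in the sources used here. Gene coordinates and lengths in the table matched GENCODE M21. FPKM multiplied by length gave whole reads within 0.01 for 100% of the values checked, and library depth was read from these.

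Genes with at least 1 FPKM in at least 3 of 9 libraries were tested with limma 3.58.1 (R 4.3.3) on log2(FPKM + 1), in 1 fit of the 3 groups, two-sided, with Benjamini-Hochberg adjustment and a threshold of 0.05. The pseudocount of 1 understates changes of low genes. The fit was tested on simulated reads with 1 spread for all genes and no shared shift between libraries. That test does not cover the library shifts seen here. Ratios were compared with exact permutation tests. An exact test of the summed share of reads was planned and is not reported, since no p is given for a sum over genes chosen with results known. The members and gene lists were chosen with earlier results of these data known. Named genes were the 7 collagens, the other fibrillar collagens, up to 4 genes per list with the smallest p after bleomycin, any list gene called elsewhere, and the 5 genes most correlated with each collagen. One gene chosen by this rule is not reported here. Alternatives covered pseudocount, filter, scaling, weights, a replicate block, voom on recovered reads, a hair follicle covariate and leaving out libraries. Only some same-numbered libraries deviated together, so the numbers were not treated as pairs.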

Additional observations from a re-analysis of the deposited data

How the results depend on the processing

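No called collagen changed direction under any alternative run. For bleomycin against control the genes called, 1234 in the reported fit, were 676 with no filter, 747 with a mean FPKM of at least 5 and 1947 with sample weights. For nitrate against control, 1249 in the reported fit, they were 294 with no filter, 306 with only the groups compared, 2085 with sample weights and 9 with the hair follicle covariate, and the collagens called were 3, 3, 6 and 0. Leaving out 1 library was first run with the low-value filter applied again to the libraries left. After those counts were seen, the genes tested were kept as in the full fit, so that 1 choice changed at a time, and both versions are given here. Over both, leaving out each replicate gave 295 to 695 genes for bleomycin against control, 0 to 37 for nitrate against bleomycin and 41 to 2882 for nitrate against control, with 2 to 3, 0 and 0 to 6 collagens called. With the genes kept, the ranges began at 334, 0 and 45; with the filter applied again, they ended at 655, 34 and 2880. With control 1 and bleomycin 1 both left out, 137 genes were called for bleomycin and 23 for nitrate against control (97 and 7 with the filter applied again), and 0 collagens in either. With the replicate block, 10 genes were called for nitrate against bleomycin, and the block changed no call of a collagen. Same-numbered libraries had correlations of deviations from -0.39 to 0.52, so the numbers are not shown to pair samples. The cause of these shifts was not tested. With principal transcript lengths, an alternative added after seeing the data, the control levels of Col1a2, Col3a1, Col5a2 and Col11a1 were 73.8, 64.4, 2.72 and 0.0414% of Col1a1. With 3 libraries a group, and few reads for Col11a1, small changes could not be resolved.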
